A study of Mus musculus with 8 samples.

Results

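The 10 genes described here encode the enzymes that remove superoxide and hydrogen peroxide (Sod1, Sod2, Sod3, Cat, Gpx1 and Gpx3), classical targets of the transcription factor NRF2 (Nqo1 and Hmox1), and the catalytic subunits of NADPH oxidases, which make superoxide or peroxide (Nox4 and Cybb). They were chosen by gene name. All 10 were found among the 20681 genes of the table, and all 10 were abundant enough to be tested. RNA was measured by poly-A sequencing in whole knee joints of mice, with 4 libraries in the group labelled control and 4 in the group labelled knockout. By the series' design text the mice carried Acan-Cre, a recombinase driven by the aggrecan gene of cartilage cells, and floxed Loxl2 alleles. Loxl2 encodes lysyl oxidase-like 2, a copper enzyme that crosslinks collagen. That text assigns that genotype to all 8 joints, while the library names mark the controls LOXL2wt and the others LOXL2ko. The controls are described as treated with vehicle, and what the knockout samples received in its place, the age and the sex of the mice are not given. All library names carry DMM, the usual abbreviation of a meniscus surgery. An aggrecan promoter reaches chondrocytes and few other cells of a joint, so that a whole-joint library also holds RNA of many cells in which the deletion would not occur.

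Superoxide dismutases turn superoxide into hydrogen peroxide, in the cytosol (SOD1), the mitochondrial matrix (SOD2) and the extracellular matrix (SOD3). Catalase and the glutathione peroxidases then reduce the peroxide, the latter at the expense of glutathione. NRF2 is held in the cytosol by KEAP1 and, when released, raises the transcription of genes of quinone reduction, haem breakdown, glutathione and NADPH supply. In cartilage and synovium these enzymes are studied because reactive oxygen species damage matrix and chondrocytes after injury.

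The libraries held 13991000 to 17411617 reads assigned to genes, and values are given as normalised read counts. The transcript of the targeted gene went against the labels. Loxl2 stood at 282, 349, 1135 and 311 in control replicates 1 to 4 and at 893, 1468, 960 and 1518 in the libraries labelled knockout (log2 1.44, adjusted p = 0.0294 by limma). The groups overlapped (exact permutation p = 0.0857). That limma call was not made by edgeR (adjusted p = 0.0669) or DESeq2 (0.0659), nor by limma with a replicate block (0.0513). It was also lost with control replicate 1, 2 or 4 left out, or with knockout replicate 2 or 4 left out (limma adjusted p = 0.0666 to 0.0849). The value counts reads over the whole gene, so a transcript that lacks the floxed part would still be counted. The groups are therefore called by their labels throughout. The libraries also differed in sex-linked transcripts. Xist was at 2241 or more in 5 libraries (control replicates 1 and 2, and knockout replicates 1, 3 and 4), and the Y-linked Ddx3y was at 1054 or more in the other 3 (control replicates 3 and 4, and knockout replicate 2). Muscle was abundant in every joint, with summed values of 10 muscle markers of 1747000 to 1869000 in the controls and 863800 to 1213000 in the libraries labelled knockout. The chondrocyte markers were present, at summed values of 3056 to 7880 and 8082 to 12370, with Matn3 at 0 in control replicate 3. In such bulk tissue, fewer cells of a type and less RNA per cell cannot be told apart. The labels do not say that the joints came from separate animals, so the p-values measure the spread between these libraries.

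Promoter sequences were taken from RefSeq (build GRCm38.p6), where 8 of the 10 genes matched, Sod3 and Hmox1 being the others. Each window of 300 bases, 250 before and 50 after the start site, was searched on both strands for 3 patterns. These were TGACNNNGC, the core of the antioxidant response element that NRF2 binds, TGANTCA, and GAGGAAG, which holds the core recognised by the myeloid factor PU.1. TGANTCA is a loose form of the AP-1 site, with any letter allowed in the middle. TGACNNNGC was found in 12.4% of all 32851 promoter windows, TGANTCA in 7.81% and GAGGAAG in 13.6%. Among the 8 promoters, 1 held each pattern. The 250 bases before the start of these 3 are shown, because they are the promoters of the set with a match, with the matching letters in capitals.
Sod1 promoter, chr16:90220512-90220761, plus strand: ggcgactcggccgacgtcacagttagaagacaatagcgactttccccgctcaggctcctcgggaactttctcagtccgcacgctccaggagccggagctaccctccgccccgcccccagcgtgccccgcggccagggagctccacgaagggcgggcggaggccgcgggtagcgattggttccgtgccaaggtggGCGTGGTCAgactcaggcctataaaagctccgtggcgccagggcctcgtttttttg
Gpx3 promoter, chr11:54902604-54902853, plus strand: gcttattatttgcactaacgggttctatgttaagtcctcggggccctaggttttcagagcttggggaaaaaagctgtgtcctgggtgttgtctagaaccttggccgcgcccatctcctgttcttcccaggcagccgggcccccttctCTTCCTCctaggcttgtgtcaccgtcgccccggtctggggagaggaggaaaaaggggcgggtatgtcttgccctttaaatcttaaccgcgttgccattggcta
Cybb promoter, chrX:9469325-9469574, minus strand: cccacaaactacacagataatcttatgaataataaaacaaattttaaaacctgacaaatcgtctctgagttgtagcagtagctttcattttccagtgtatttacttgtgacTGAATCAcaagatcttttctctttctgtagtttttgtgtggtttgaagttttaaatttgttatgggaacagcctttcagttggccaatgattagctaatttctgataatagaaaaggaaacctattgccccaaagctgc
The Sod1 match is to TGACNNNGC on the opposite strand, from 56 to 48 bases before the start. The Gpx3 match is to GAGGAAG on the opposite strand. The Cybb match, TGAATCA, is to TGANTCA, a pattern that is the same on both strands. Its middle letter A is allowed only by the loose pattern. The promoter windows of Nqo1, Cat, Sod2, Gpx1 and Nox4 held none of these patterns. Sites farther than 250 bases before the start were not searched, so a gene without a match here may still have one. Only 1 RefSeq start per gene was searched. The windows of Sod2, Gpx3, Nox4 and Cybb lie inside the gene bounds given below, which come from another annotation (GENCODE M21). A match is a description of the sequence, and no binding was measured in these libraries.

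Of the 10 genes, 2 rose and 3 fell in the libraries labelled knockout, and 5 did not pass the test. Cybb and Gpx3 were higher, and Cat, Sod2 and Nqo1 were lower. The background was wide. Over the 14949 genes tested, 23.2% passed an adjusted p of 0.05 by limma, 11.6% as higher (1732 genes) and 11.6% as lower (1729 genes). The groups did not overlap for 25.1% of all genes, 11.7% higher and 13.4% lower, and for 5 of the 10 genes (Cybb higher, and Sod1, Sod2, Cat and Nqo1 lower). Their log2 differences ran from -0.72 for Nqo1 to 1.25 for Cybb with a median of 0.24, beside a median of 0.00 over all genes tested. Of the 5 called genes, the calls of Cat and Sod2 held with each library left out, while those of Cybb, Gpx3 and Nqo1 did not, as given below.

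**Figure D1:**
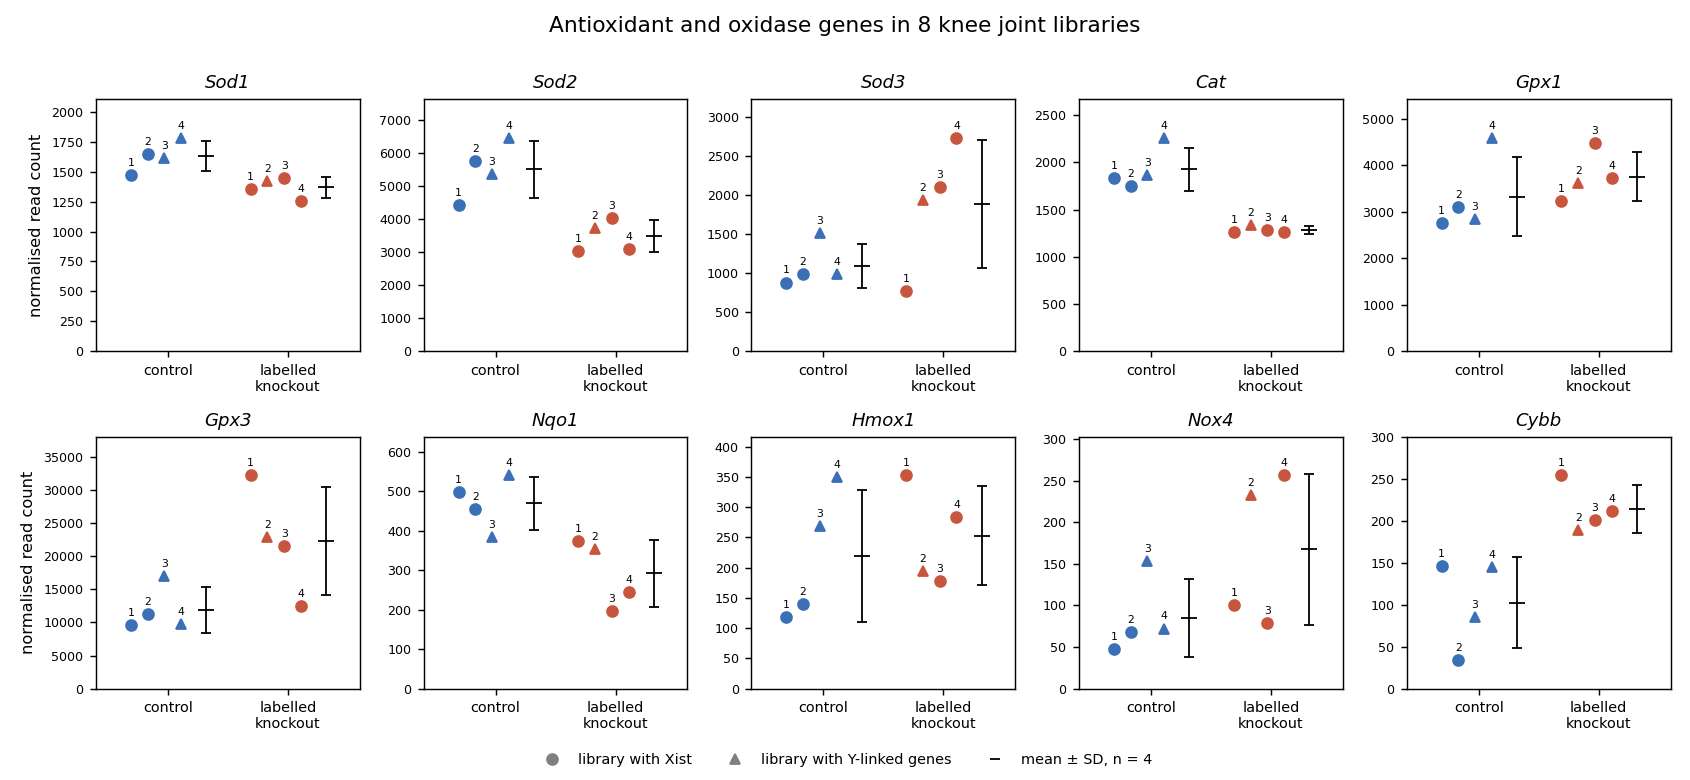
Normalised read counts of the 10 genes (y axis, from 0, 1 scale per gene) in the 4 control libraries and the 4 labelled knockout, numbered by replicate, with the mean and SD of each group. Circles are libraries with Xist and triangles those with Y-linked transcripts. Cat, Sod2, Sod1 and Nqo1 lie lower without overlap in the libraries labelled knockout, Cybb lies higher without overlap, and Hmox1, Nox4, Gpx1, Gpx3 and Sod3 overlap.

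Sod2, the manganese enzyme of mitochondria (chromosome 17, 13006846 to 13040063, plus strand, mm10), was at 4431, 5773, 5370 and 6475 in control replicates 1 to 4. In the libraries labelled knockout it was at 3052, 3737, 4037 and 3100. Every library labelled knockout lay below every control. The mean fell from 5512 ± 853 to 3482 ± 484 (SD, n = 4 each; log2 -0.66, SE 0.14; adjusted p = 0.0107 by limma; exact permutation p = 0.0286). With 4 libraries against 4 this exact two-sided p is the smallest possible. SOD2 is made in every cell with mitochondria and is plentiful in muscle.

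Sod1 (chromosome 16, 90220754 to 90226329, plus strand), the copper and zinc enzyme of the cytosol, had a smaller difference. It was at 1476, 1650, 1615 and 1784 in the controls and 1352, 1425, 1443 and 1252 in the libraries labelled knockout. The groups did not overlap, but the highest library labelled knockout lay just below the lowest control. The means were 1632 ± 127 and 1368 ± 86.9 (SD, n = 4 each), and the log2 difference of -0.25 missed the threshold (limma adjusted p = 0.0566, exact permutation p = 0.0286). The call was made by DESeq2 (adjusted p = 0.0424) and without control replicate 1 (limma adjusted p = 0.0453). When libraries were scaled by their total reads alone (CPM), the difference was -0.005. The gene Scaf4 overlaps Sod1 on the opposite strand, and the use of strand in counting is not given.

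Sod3, the secreted enzyme that binds to matrix (chromosome 5, 52363791 to 52371418, plus strand), split the libraries labelled knockout. They held 769, 1932, 2108 and 2736 in the order of replicates 1 to 4, against 880, 991, 1514 and 985 in the controls. Knockout replicate 1 lay below all controls and the other 3 lay above all controls. The log2 difference was 0.68 with a 95% interval of -0.09 to 1.45 (limma adjusted p = 0.175, exact permutation p = 0.20). Chondrocytes and their matrix are a known place of SOD3, and 7 of 8 chondrocyte markers were higher in the libraries labelled knockout, 1 of them called. Relative to their mean log2 level Sod3 differed by 0.03 (exact permutation p = 0.971), a sign that turned with control replicate 1 or 2 left out, or with knockout replicate 2 or 4 left out, to as low as -0.31. Without knockout replicate 1 the difference of Sod3 itself was 1.06 and was called (limma adjusted p = 0.0144), and DESeq2 called it with all libraries (adjusted p = 0.0429).

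Catalase, the haem enzyme of peroxisomes, had the smallest p of the set. Cat (chromosome 2, 103453849 to 103485160, minus strand) was at 1834, 1749, 1863 and 2262 in the controls and at 1258, 1342, 1284 and 1259 in the libraries labelled knockout. Those last 4 values lay close together, and all were below every control. The mean fell from 1927 ± 228 to 1286 ± 39.5 (SD, n = 4 each), to 0.67 of the control level by the fitted difference (log2 -0.58, SE 0.09; adjusted p = 0.00504 by limma, exact permutation p = 0.0286). Cat was called lower under all 21 alternatives, and Sod2 under all but the one with libraries with Xist alone (adjusted p = 0.0949 by limma). Their log2 differences lay between -0.62 and -0.33 for Cat and between -0.76 and -0.39 for Sod2.

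Muscle markers moved in the same direction as Sod2 and Cat. All 10 tested muscle markers were lower in the libraries labelled knockout, 4 of them called by limma and 9 by DESeq2, with a median log2 difference of -0.81. Relative to the mean log2 level of those markers in the same library, Sod2 differed by 0.08 between the groups (exact permutation p = 0.543, adjusted over 9 such comparisons 0.698), and by -0.007 without control replicate 1. Cat is also rich in red blood cells, whose 7 tested markers were all lower with a median of -1.91, 6 of them at an unadjusted p under 0.05 and 0 called by limma, edgeR or DESeq2. Relative to them Cat was higher by 1.27 in the libraries labelled knockout, which did not pass (exact permutation p = 0.229). The part of either tissue in these falls was not tested.

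Both glutathione peroxidases of the set are selenium enzymes, and Gpx3 rose while Gpx1 did not pass the test. Gpx3, the secreted plasma form (chromosome 11, 54902453 to 54910377, plus strand), was at 9609, 11220, 17020 and 9694 in the controls and at 32280, 22920, 21610 and 12460 in the libraries labelled knockout. In 3 of these 4 libraries it lay above all controls, while knockout replicate 4 lay below control replicate 3. The mean rose from 11890 ± 3503 to 22320 ± 8113 (SD, n = 4 each; log2 0.87, SE 0.28; adjusted p = 0.0491 by limma; exact permutation p = 0.0571). That call was at the edge of the threshold. Leaving out any one of control replicates 1, 2 and 4 and knockout replicates 1, 2 and 3 ended it (adjusted p = 0.0757 to 0.116 by limma), as did fits without a filter on low genes (0.0512) and with a replicate block (0.0573). Fat cells are a known source of Gpx3. Of 7 adipocyte markers 0 were called by limma or edgeR, and 1 was lower at an unadjusted p under 0.05 and by DESeq2. Their median difference was -0.17. Relative to the mean log2 level of these markers Gpx3 was higher by 1.1, which did not pass (exact permutation p = 0.114, adjusted 0.257). Fibroblast markers were higher, 8 of 8 with 7 called, at summed values of 37740 to 118300 in the controls and 160300 to 262800 in the libraries labelled knockout. The part of fat cells or fibroblasts in the rise of Gpx3 was not tested.

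Gpx1, the cytosolic and mitochondrial form (chromosome 9, 108338903 to 108340343, plus strand), was not called. It was at 2768, 3107, 2848 and 4599 in the controls and at 3226, 3622, 4478 and 3722 in the libraries labelled knockout. Control replicate 4 lay above all other libraries, and the remaining controls lay below all libraries labelled knockout. The log2 difference was 0.20 with a 95% interval of -0.17 to 0.57 (limma adjusted p = 0.412, exact permutation p = 0.343).

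**Figure D2:**
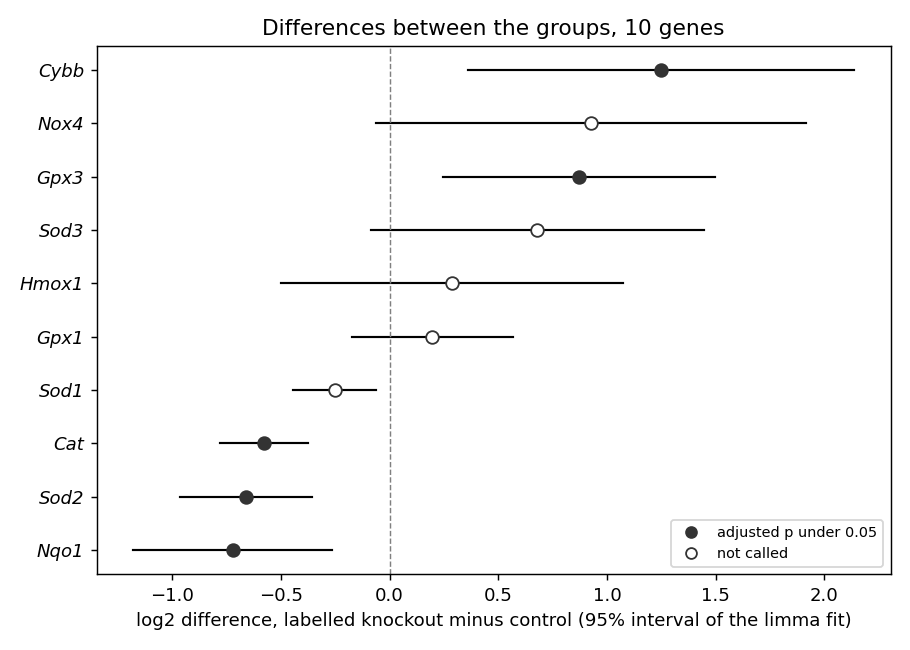
Log2 difference, libraries labelled knockout minus controls (x axis) for each of the 10 genes (y axis, ordered by the difference), with the 95% interval of the limma fit before adjustment. Filled points passed an adjusted p of 0.05: Nqo1, Sod2 and Cat at -0.72, -0.66 and -0.58, and Gpx3 and Cybb at 0.87 and 1.25.

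Of the NRF2 targets of the set, Nqo1 fell and Hmox1 did not pass the test. Nqo1, a quinone reductase (chromosome 8, 107388225 to 107403206, minus strand), was at 498, 454, 384 and 541 in the controls and at 374, 352, 196 and 245 in the libraries labelled knockout. The groups did not overlap, although control replicate 3 and knockout replicate 1 were close. The mean fell from 469 ± 66.9 to 292 ± 85.4 (SD, n = 4 each; log2 -0.72, SE 0.21; adjusted p = 0.0320 by limma; exact permutation p = 0.0286). The call ended on leaving out any one of control replicates 1, 2 and 4 and knockout replicate 4 (adjusted p = 0.0664 to 0.0906 by limma). It was also lost with CPM (log2 -0.47, adjusted p = 0.14), a scaling that moved the median of all genes to 0.25 and left 88.3% of calls higher.

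Hmox1, the inducible haem oxygenase (chromosome 8, 75093621 to 75100589, plus strand), was at 119, 139, 268 and 351 in the controls and at 353, 195, 177 and 284 in the libraries labelled knockout. The range of the libraries labelled knockout lay almost wholly within that of the controls. The log2 difference was 0.29 with a 95% interval of -0.50 to 1.07 (limma adjusted p = 0.583, exact permutation p = 0.486). Macrophages carry much of the Hmox1 of many tissues, and 9 of 9 macrophage markers were higher in the libraries labelled knockout, 8 of them called, with a median difference of 1.28. Relative to these markers Hmox1 was lower by 1.01 on the log2 scale, which did not pass (exact permutation p = 0.0857, adjusted 0.257). The 2 controls with Y-linked transcripts held more Hmox1 than the 2 with Xist, and the differences within these kinds of library had opposite signs (1.01 with Xist, -0.65 with Y-linked transcripts).

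Other genes around NRF2 were either lower or not called. The transcript of NRF2 itself, Nfe2l2, had a log2 difference of -0.04 (limma adjusted p = 0.753), and the competing repressor Bach1 one of -0.14 (adjusted p = 0.414); with CPM both signs turned, to 0.20 and 0.11. Keap1, the inhibitor, fell from 1318 ± 95.9 to 1012 ± 51.7 (SD, n = 4 each; log2 -0.38, limma adjusted p = 0.0122). It was not called by limma under quantile normalisation (adjusted p = 0.0507), with CPM (log2 -0.13, adjusted p = 0.293) or with the libraries with Xist alone (0.0815). Nor was it called with CPM over the genes left without the 50 highest and the muscle, red cell and neutrophil markers (0.0654). Of the 12 genes of NRF2 control and NADPH supply, 4 were called lower and 0 higher by each of limma, edgeR and DESeq2, with 2 higher at an unadjusted p under 0.05 and a median of -0.20. With CPM, Me1 alone of these 4 stayed called (log2 -0.42, adjusted p = 0.0305 by limma). The muscle markers described above were lower in the same libraries, and their part in these differences was not tested. Beside Keap1 the 4 were Sqstm1 (log2 -0.55), which binds KEAP1, and the NADPH-linked enzymes Me1 (-0.67) and Taldo1 (-0.33). They were named after their values were seen. Me1 was called under all 21 alternatives. Sqstm1 was called with each library left out, but not with a replicate block (limma adjusted p = 0.0554), quantile normalisation (log2 -0.26, 0.168), CPM (log2 -0.30, 0.105) or the libraries with Xist alone (0.0831). The call of Taldo1 was lost with the block (0.0827), with quantile normalisation (0.149), with CPM (log2 -0.08, 0.47) and with the libraries with Xist alone (0.207). It also ended without any of control replicates 1, 2 and 4 and knockout replicates 1, 2 and 4 (limma adjusted p up to 0.0761).

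No gene of glutathione synthesis was called. Gclc and Gclm, the subunits of the rate-limiting ligase, had log2 differences of -0.02 and -0.22 (limma adjusted p = 0.898 and 0.434), with means of 331 and 386 in the controls and signs that turned with CPM, to 0.23 and 0.03. Gsr (-0.16), which regenerates glutathione, and Gpx4 (-0.14), which reduces lipid peroxides, were not called either (adjusted p = 0.346 and 0.254 by limma; 0.09 and 0.11 with CPM). The cystine carrier Slc7a11 was too low to test, with at most 19 reads in a library. Over the whole glutathione list 12 of 14 genes were tested, 2 were called higher and 1 lower, and the median was -0.17. In the thioredoxin branch Txnrd1 (-0.30), Prdx1 (0.05) and Srxn1 (-0.21) were not called (limma adjusted p = 0.0745, 0.733 and 0.171). Txnrd1 was called without knockout replicate 2 (0.0409). Of the 12 genes of that branch 1 was called higher and 2 lower, with a median of -0.28.

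**Figure D3:**
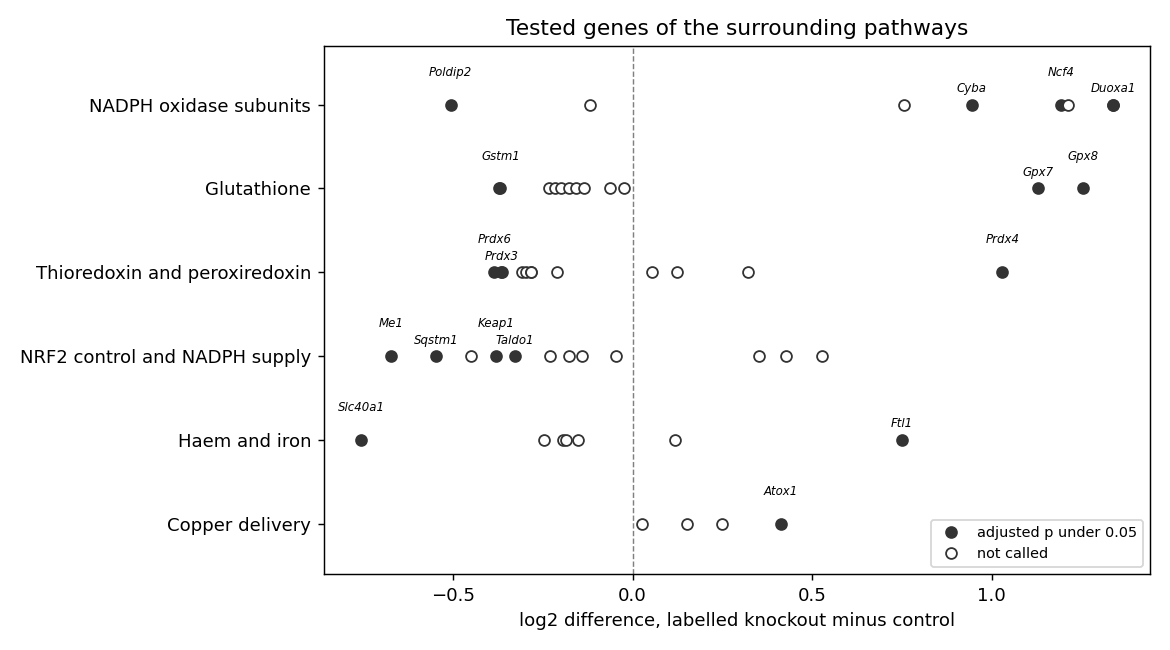
Log2 difference, libraries labelled knockout minus controls (x axis) for the tested genes of the 6 surrounding pathway lists (y axis). Filled points passed an adjusted p of 0.05 and are named. Called genes on the right are the oxidase subunits Cyba and Ncf4 with Duoxa1, and Gpx7, Gpx8, Prdx4, Ftl1 and Atox1, and most other points lie between -0.5 and 0.

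Haem breakdown by HMOX1 releases iron and biliverdin, and the genes downstream of it moved in different directions. Ftl1, the ferritin light chain, rose from 2725 ± 469 to 4551 ± 466 (SD, n = 4 each; log2 0.75, SE 0.13; adjusted p = 0.00619 by limma). Slc40a1, the iron exporter ferroportin, fell from 555 ± 101 to 329 ± 66.3 (SD, n = 4 each; log2 -0.76, limma adjusted p = 0.0128), a call just lost with CPM (log2 -0.51, adjusted p = 0.0502). For both genes the groups did not overlap. Fth1, the heavy chain, was lower in every library labelled knockout than in any control, with a difference of -0.25 that was not called by limma (adjusted p = 0.110) and was called by DESeq2 (0.0371). The difference was 0.001 with CPM and 0.18 with quantile normalisation. Ferritin genes have many near-identical processed copies, so their counts are uncertain where reads were shared. Hmox2, the constitutive oxygenase, and Blvrb, a biliverdin reductase, were not called (log2 -0.19 and -0.19, adjusted p = 0.193 and 0.570). Of the 7 genes of this list, 1 was called higher and 1 lower. Among the genes that bring copper to the dismutases, Ccs, the chaperone of SOD1, had a difference of 0.03 and Atp7a, the copper pump that loads SOD3, one of 0.15, neither called (limma adjusted p = 0.898 and 0.782). The list of 5 had 4 tested genes and 1 call, Atox1, higher by 0.41, which was lost with control replicate 1, 2 or 4 left out, or with knockout replicate 1, 2 or 4 left out (limma adjusted p up to 0.0934). The signs of Ccs and Atp7a turned under quantile normalisation (-0.10 and -0.10).

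Cybb, the catalytic subunit gp91phox of the phagocyte oxidase (chromosome X, 9435252 to 9487771, minus strand), had the largest rise of the set. It was at 146, 34.3, 85.1 and 145 in the controls and at 254, 189, 201 and 211 in the libraries labelled knockout. All 4 libraries labelled knockout lay above every control, and control replicate 2 was the lowest control. The mean rose from 102 ± 53.6 to 214 ± 28.4 (SD, n = 4 each), 2.38-fold by the fitted difference (log2 1.25, SE 0.40; adjusted p = 0.0474 by limma, exact permutation p = 0.0286). Without control replicate 2 the difference was 0.80. The limma call ended on leaving out control replicate 3 or any library labelled knockout (adjusted p = 0.068 to 0.103), with quantile normalisation (0.0727) and with edgeR (adjusted p = 0.0599). The gene is X-linked. Within the 5 libraries with Xist it differed by 1.62 (limma adjusted p = 0.109), and in the 3 with Y-linked transcripts by 0.76.

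Of the partners of CYBB in the same complex, Cyba and Ncf4 were called higher by limma, and Ncf1 and Rac2 were not. DESeq2 called both of the latter (adjusted p = 0.0232 and 0.0256), as did limma with CPM (0.0209 and 0.0357), and limma with a replicate block called Rac2 (0.0220). Cyba, which encodes the membrane subunit p22phox, was at 256, 156, 215 and 228 in the controls and at 439, 330, 445 and 419 in the libraries labelled knockout (log2 0.94, SE 0.17; adjusted p = 0.00658 by limma). Ncf4, of p40phox, was at 73.6, 29.3, 34.6 and 60.3 in the controls and 146, 83.0, 117 and 91.5 in the libraries labelled knockout (log2 1.19, adjusted p = 0.0240 by limma), a call lost without control replicate 2 (0.0613) or knockout replicate 1 (0.0629) or 4 (0.0511). The Ncf4 call was also lost with quantile normalisation (limma adjusted p = 0.0596) and with the libraries with Xist alone (0.102). For Cyba and Ncf4 the groups did not overlap. Ncf1, of the organiser p47phox, did not overlap either, at 86.8 to 207 in the controls and 224 to 289 in the libraries labelled knockout, but its difference of 0.76 was at the edge of the threshold (limma adjusted p = 0.0510) and was called without control replicate 1. It lies opposite Gtf2ird2 and Cyba opposite Gm20388. Rac2, the haematopoietic GTPase of the complex, was at 90.7 to 315 and 170 to 553 (log2 1.21, adjusted p = 0.0685 by limma), and was called without control replicate 1 or knockout replicate 2. Control replicate 2 had the lowest value of Cybb, Cyba, Ncf1 and Ncf4.

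**Figure D4:**
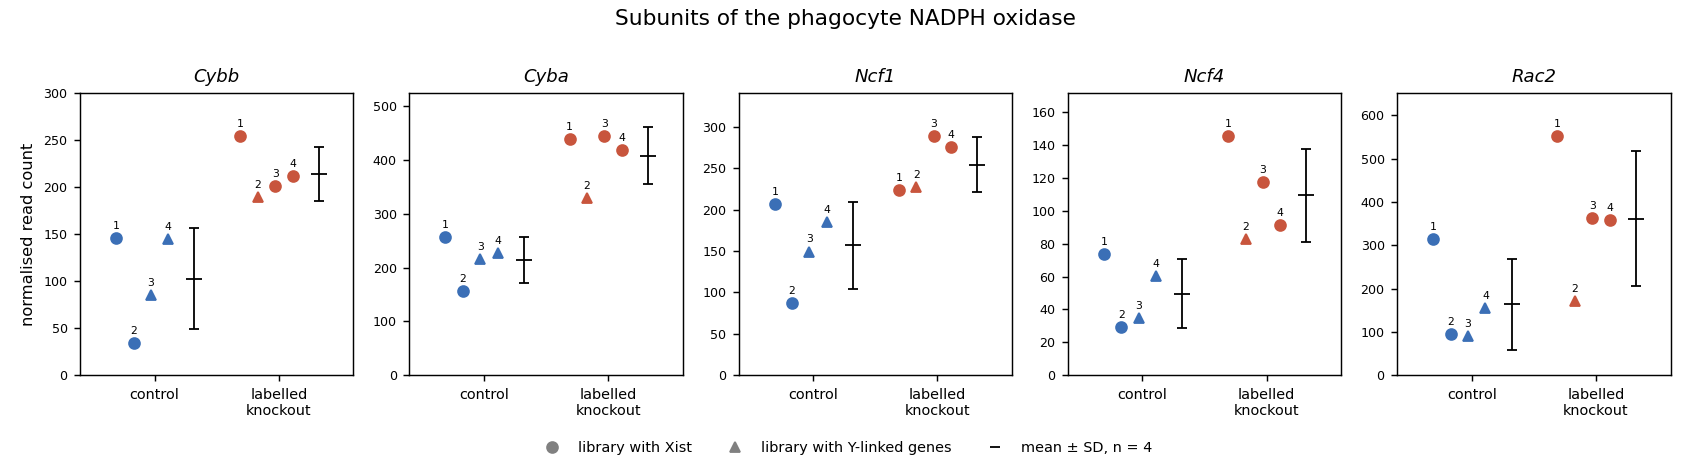
Normalised read counts (y axis, from 0, 1 scale per gene) of Cybb and 4 further subunits of the phagocyte oxidase in the 4 control libraries and the 4 labelled knockout, numbered by replicate, with the mean and SD of each group. Every library labelled knockout lies above every control except for Rac2, where control replicate 1 at 315 lies above knockout replicate 2 at 170.

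Macrophage and neutrophil markers are given beside these genes because both cells carry the complex. The summed value of 9 macrophage markers was 1925 to 4015 in the controls and 5991 to 7978 in the libraries labelled knockout, with none at 0. Relative to the mean log2 level of these markers, Cybb differed by -0.04 between the groups (exact permutation p = 0.886, adjusted 0.971). The sign turned to 0.12 without control replicate 1 and to 0.03 without control replicate 4. The neutrophil markers were lower, 8 of 8 tested, at sums of 1370 to 5582 and 1114 to 2677, with 0 called by limma, edgeR or DESeq2 and 1 at an unadjusted p under 0.05. Cxcr2 was at 0 in knockout replicate 4. Relative to them Cybb was higher by 2.01 (exact permutation p = 0.0286, adjusted 0.257). The part of macrophage number in the difference of Cybb was not tested.

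Nox4, which makes hydrogen peroxide without cytosolic activators and is found in fibroblasts, bone cells and vessels (chromosome 7, 87246096 to 87398710, plus strand), was low. It was at 47.6, 67.6, 153 and 72.3 in the controls and at 101, 233, 79.4 and 257 in the libraries labelled knockout. Knockout replicates 2 and 4 lay above all controls, and replicates 1 and 3 lay below control replicate 3. The log2 difference was 0.93 with a 95% interval of -0.06 to 1.92 (limma adjusted p = 0.154, exact permutation p = 0.143), and it was called in none of the 21 alternatives (limma, edgeR or DESeq2, adjusted p from 0.0568 to 0.352). Relative to 8 fibroblast markers Nox4 was lower by 0.69, which did not pass (exact permutation p = 0.143, adjusted 0.257). Osteoclast markers were higher, 7 of 7 with 6 called by limma and 4 by edgeR and by DESeq2 (median 2.80, summed values of 1494 to 10370 in the controls and 8439 to 30380 in the libraries labelled knockout). Osteoblast markers were higher, 6 of 6 with 3 called by limma and 1 by edgeR and by DESeq2 (median 1.62, sums of 1060 to 7194 and 5971 to 12260). Of 6 endothelial markers 0 were called by limma, edgeR or DESeq2 and 0 had an unadjusted p under 0.05 (median -0.08). The part of these cells in the values of Nox4 was not tested. Poldip2, whose product binds the p22phox partner of NOX4, fell from 1539 ± 70.9 to 1085 ± 89.3 (SD, n = 4 each; log2 -0.51, limma adjusted p = 0.00551) and was named after its value was seen. Its call was lost with the libraries with Xist alone (limma adjusted p = 0.0508). Among the 8 oxidase subunits and factors tested and reported, 3 were called higher and 1 lower by limma and by edgeR, and 6 higher and 1 lower by DESeq2, with a median of 1.07. Beside Cyba and Ncf4 the higher gene was Duoxa1 (log2 1.34, adjusted p = 0.0292 by limma), a maturation factor of the dual oxidases, named likewise, whose call was lost without control replicate 4 or any library labelled knockout. That call was also lost with quantile normalisation (limma adjusted p = 0.0834) and with the libraries with Xist alone (0.0891). Nox1, Noxo1 and Duox2 were too low to test.

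The genes whose profiles over the 8 libraries were closest were found among 11645 tested genes with a mean value of at least 50, by the root mean square difference of log2 values after each gene was centred on its own mean. For Cybb they were Arhgap30, Lepr and Ptprc (0.21, 0.24 and 0.25). Arhgap30 and Ptprc, the latter encoding the pan-leukocyte protein CD45, were themselves called higher (log2 1.05 and 1.23, limma adjusted p = 0.0367 and 0.0404), calls that were lost without any of several single libraries, like that of Cybb. For Nox4 they were Fstl1, Ltbp2 and Dpt (0.14, 0.14 and 0.15), all made by connective tissue cells and none called (adjusted p = 0.0872 to 0.166). For Hmox1 they were Pop1, Rsbn1 and Wdfy1 (0.18, 0.23 and 0.26), none called. These distances describe the same 8 libraries in which the genes were tested.

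Levels of different genes were compared per length, as reads divided by the length of annotated exons and by the total reads of the library (RPKM). In the controls Gpx3 was highest at 395 ± 122 RPKM (SD, n = 4), followed by Gpx1 at 139 ± 34.2, Cat at 44.3 ± 5.31, Sod2 at 33.0 ± 4.52 and Sod1 at 24.7 ± 1.58. Nqo1 and Sod3 followed at 18.2 ± 2.56 and 17.6 ± 4.88, then Hmox1 at 7.53 ± 3.76, and Cybb and Nox4 closed the order at 1.07 ± 0.57 and 0.61 ± 0.34. Neighbours in that order had separate ranges in the controls, except for Nqo1 beside Sod3 and Cybb beside Nox4. In the libraries labelled knockout Gpx3 was at 875 ± 316 RPKM and Sod3, at 36.2 ± 16.6, stood next to Cat at 35.2 ± 2.30 with overlapping ranges. Ranges there also overlapped for Sod2 beside Sod1, Nqo1 beside Hmox1 and Cybb beside Nox4. Annotated exons include long alternative ends for some genes. The levels per length of Sod2, with 10008 exon bases, and Sod1, with 3970, may therefore be low estimates. The order of the genes depends on the lengths used, also where ranges were separate.

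The comparison was repeated with sex-linked expression taken into account. With a term for Y-linked expression, the falls of Cat and Sod2 stayed called (log2 -0.54 and -0.61, limma adjusted p = 0.00772 and 0.0160). The differences of Cybb (1.32, adjusted p = 0.0530), Gpx3 (0.93, adjusted p = 0.0507) and Nqo1 (-0.69, adjusted p = 0.0514) did not pass the threshold. Among the libraries with Xist alone, 2 controls against 3 (a grouping made after the data were seen), Cat fell by 0.50 on the log2 scale and was the only one of the 10 genes called, where 885 genes were called in all. In the 3 libraries with Y-linked transcripts, 2 controls against 1, the differences of Cat, Sod2, Nqo1, Gpx3 and Cybb had the same signs as in all libraries, at -0.61, -0.66, -0.37, 0.84 and 0.76.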

How the data were processed

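The deposited values are gene counts divided by a size factor per library, a normalised signal. The submitters' processing notes name HISAT2 and featureCounts with the build mm10, and per the labels' design text the authors counted reads per gene and tested them with DESeq2 after normalising and filtering. Versions, annotation, filter values and the use of strand are not given in the sources used here. In each column 100% of values were whole multiples (within 0.01) of the smallest positive value, which gave whole reads for edgeR 4.0.16 and DESeq2 1.42.0 as alternatives (3324 and 4125 genes called). In control replicate 2 and knockout replicate 1 that step was close to 1, at 1.01 and 0.997. There the largest distance from a whole multiple was 0.000273 and 0.000119 of a step.

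A gene was tested where 4 or more of the 8 libraries reached a value of 10. The fit used limma 3.58.1 on log2(value + 1), with an intensity trend and Benjamini-Hochberg adjustment over all genes tested. A log2 difference is on that scale and understates changes of low genes. Exact two-sided permutation tests used all 70 assignments. The tests were checked on simulated data with few changed genes, the same dispersion for every gene and no shift in tissue make-up. These libraries are less simple, so that check does not cover their spread or their shift in muscle. The 10 genes, the pathway lists and the marker lists were chosen with earlier results of these data known. The genes to be named were all 10, pathway genes picked by role, and the 3 nearest profiles of Cybb, Nox4 and Hmox1. The replicate numbers are not stated to mark a shared animal or day. The main comparison had no replicate block, and a fit with one was an alternative. Gene positions and exon lengths are from GENCODE M21 (mm10), in which 171 names of the table had no match. The table held 12 repeated names, none of them a gene named here. A gene of the oxidase list is not reported here.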

Additional observations from a re-analysis of the deposited data

Results flagged for a closer look

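The difference of Hmox1 had opposite signs in the libraries with Xist and in those with Y-linked transcripts, and the difference between these did not pass the adjusted test. Among the libraries with Xist, the 3 labelled knockout (353, 177 and 284) lay above both controls (119 and 139), a log2 difference of 1.01. Among those with Y-linked transcripts, the 1 labelled knockout (195) lay below both controls (268 and 351), a difference of -0.65. The interaction was -1.66 (limma unadjusted p = 0.00887, adjusted p = 1), with 0 genes called for an interaction by limma and 293 at an unadjusted p under 0.05 of the 14949 genes tested. Neither edgeR nor DESeq2 was run on the interaction. With 1 library labelled knockout in the second set, that library alone fixes its direction. The grouping by sex-linked transcripts was made after the data were seen. None of the 20 groups of 4 libraries held a value flagged as far from the others.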

How the results depend on the processing

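With a replicate block limma called 2018 genes, and 885 among the libraries with Xist only, against 3461. Leaving out 1 library gave 1751 (without knockout replicate 4) to 3841 (without knockout replicate 3). Of the 10 genes, 1 was called higher without a filter, with quantile normalisation, with edgeR and with the block, 0 with the Y-linked term or with Xist-only libraries, and 0 to 1 with 1 library left out, in place of 2. Over all genes, 1652 of 20681 were called higher without a filter. Of 14949 genes tested, 1298 were called higher with quantile normalisation, 1690 with edgeR and 1117 with the block. The Y-linked term gave 1747, the Xist-only libraries 577, and leaving out 1 library 831 to 1840, against 1732. DESeq2 called 3 of the 10 higher and 4 lower, beside 2140 and 1985 of all genes. Among the Xist-only libraries 1 of the 10 was called lower in place of 3, beside 308 of all genes in place of 1729. Libraries of the same replicate number were mostly not more alike, which cannot exclude a shared day. For replicate numbers 2, 3 and 4, 1 library had Xist and the other Y-linked transcripts, so those pairs were not from 1 animal. Same-numbered deviations correlated at 0.21, -0.12, -0.23 and -0.06, and only control replicate 1 matched its own number best. Of the 10 genes' calls, the block ended that of Gpx3 alone (adjusted p = 0.0573).

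The following signs turned in genes that were not called, and the cause was not tested. Scaling by total reads (CPM), which raises the median of all genes by 0.25, gave Nfe2l2 0.203, Bach1 0.108, Gclc 0.225, Gclm 0.0309, Gsr 0.0916, Gpx4 0.112, Srxn1 0.0364, Hmox2 0.0529, Blvrb 0.0613 and Fth1 0.00076. CPM over the genes left after removing the 50 highest and the markers of muscle, red cells and neutrophils gave Nfe2l2 0.109, Bach1 0.014, Gclc 0.131 and Gpx4 0.0178. Quantile normalisation gave Gpx4 0.138, Fth1 0.18, Ccs -0.0955, Atp7a -0.102, Pop1 -0.00868 and Rsbn1 -0.112. The Y-linked term gave Ccs -0.028, and the Xist-only libraries gave Bach1 0.0729 and Gclc 0.0863. With 1 library left out, the ranges were -0.0901 to 0.0226 for Nfe2l2, -0.0804 to 0.0312 for Gclc, -0.0221 to 0.129 for Prdx1, -0.0295 to 0.106 for Ccs, -0.223 to 0.308 for Atp7a and -0.123 to 0.326 for Rsbn1. Relative to their markers they were -0.234 to 0.123 for Cybb, -0.308 to 0.432 for Sod3 and -0.00685 to 0.16 for Sod2. A pseudocount of 0.5 gave Sod3 -0.00364 there.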

Other observations

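Among other peroxide-reducing enzymes, Gpx7, Gpx8 and Prdx4 were higher in the libraries labelled knockout, and Prdx3 and Prdx6 were lower. Gpx7 and Gpx8, peroxidases of the endoplasmic reticulum that support oxidative protein folding, rose from 161 ± 42.2 to 348 ± 59.3 and from 164 ± 44.1 to 387 ± 84.7 (SD, n = 4 each; log2 1.13 and 1.25, limma adjusted p = 0.00718 and 0.00600). Prdx4, the peroxiredoxin of the same compartment, rose from 122 ± 30.8 to 253 ± 71.7 (log2 1.03, adjusted p = 0.0164), with knockout replicate 3 at 160 below control replicate 3 at 165. Prdx3, of mitochondria, and Prdx6, of the cytosol, fell by 0.37 and 0.38 on the log2 scale (limma adjusted p = 0.0307 and 0.0298). Both calls were lost on leaving out control replicate 2 or 4 or knockout replicate 1, 2 or 4 and under the replicate block. Quantile normalisation and the libraries with Xist alone also ended both. So did CPM over the genes left without the 50 highest and the muscle, red cell and neutrophil markers. With libraries scaled by total reads alone (CPM) their differences were -0.12 and -0.14 and were not called (adjusted p = 0.314 and 0.325). These genes were named after their values were seen, and no difference between compartments was tested. Fibroblast markers were higher in the same libraries (8 of 8, 7 of them called by limma, median 1.62), and their part in these values was not tested. Gpx7 and Gpx8 were called under each alternative tried, and Prdx4 was not called under the replicate block (adjusted p = 0.0553 by limma), without knockout replicate 4 (0.05) or with libraries with Xist alone (0.0859).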
